A study of Mus musculus with 64 samples.

Results

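The integrins of macrophages described here are 10 subunit genes, chosen by name: the alpha subunits Itgam, Itgax, Itgal, Itga4, Itga5, Itga6 and Itgav and the beta subunits Itgb1, Itgb2 and Itgb5. They are 10 of the 55487 genes in the count files and 10 of the 14537 that passed the filter on low counts. Their mRNA was measured in bone marrow-derived macrophages (BMMs), which are grown from mouse bone marrow cells with the growth factor M-CSF, here from medium conditioned by L929 fibroblasts. The study asked how ligands of the aryl hydrocarbon receptor (AhR), a ligand-activated transcription factor, alter the response of BMMs to bacteria.

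Wild-type BMMs came from female Ahr+/+ C57BL/6JRj mice and AhR-deficient BMMs from Ahr-/- mice backcrossed to C57BL/6JRj, and 4 mice of each genotype were used. Cells were kept for 6 h with 1 µM benzo[a]pyrene (BaP, a high-affinity AhR ligand from combustion), 10 µM indole-3-carbinol (I3C, a low-affinity AhR ligand from plants) or the solvent DMSO alone. Activation with heat-killed Salmonella Enteritidis (hk S.E.) then lasted either 3 h or 20 h, and in each genotype and at each time 1 further DMSO group stayed unactivated. This gives 16 groups of 4 libraries, and every unactivated group had received DMSO. The Ahr-/- deletion is germline, so it was present in all cells of the mouse and throughout the growth of the BMMs. Cultures were used when most of the cells carried F4/80 and CD11b, and CD11b is the protein of Itgam. How this choice bears on the mRNA level of Itgam was not tested.

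Libraries held between 12152496 and 50644601 counts on genes, with a median of 24499165, except 1 unactivated Ahr+/+ library of 20 h (replicate 4) with 233047331. All 10 macrophage markers examined reached 1 CPM (counts per 1e6 counts on genes), with a summed level of 18882 to 37682 CPM, against at most 39.9 CPM for dendritic cell, 2.95 for lymphocyte and 29.7 for fibroblast markers. Platelet and megakaryocyte markers summed to 9.20 to 139 CPM, with Gp1bb at 0 throughout. Neutrophil markers summed to 15.8 to 44.3 CPM in unactivated and 112 to 261 CPM in hk S.E.-activated Ahr+/+ BMMs of 3 h, and their part in the results below was not tested. All 8 hk S.E. response genes examined, among them Tnf and Il6, rose in each of the 4 activation comparisons. Ahr itself, counted over the whole gene, was higher in the Ahr-/- groups (log2 fold change 0.88 to 1.04 in 4 comparisons), so this total does not check the genotype labels, and the deleted part was not resolved. Ahrr, a direct AhR target, rose with BaP at 3 h by 3.36 ± 0.26 (log2, SE) in Ahr+/+ BMMs, adjusted p = 7.13e-14, against -0.33 ± 0.46, adjusted p = 0.859, in Ahr-/- BMMs (edgeR). All p-values measure the spread between these libraries. The Ahr-/- libraries of 20 h stood apart by replicate: replicates 1 and 2, and replicates 3 and 4, differed from each other by a chi-square per degree of freedom of 4.80 to 38.7, but 1 or 2 differed from 3 or 4 by 62.1 to 155. The activated Ahr-/- libraries of 3 h split the same way, at 3.90 to 12.9 within and 24.6 to 99.4 across these pairs. In the unactivated Ahr-/- group of 3 h, replicates 1 and 2 differed by 91.5, replicates 3 and 4 by 5.48, and the others by 31.0 to 48.0. The labels name no cause for this. Each library was left out in turn, but this leaves both sides of such a split in place and so cannot show its part in the results. A fit with the replicate number as a block was also made, though the numbers are not stated to mark mice. The part of the split was not examined further.

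Integrins are pairs of 1 alpha and 1 beta chain that span the membrane, bind matrix proteins or counter-receptors on other cells outside, and talin, kindlin and the actin skeleton inside. Leukocytes are marked by the beta-2 family, in which Itgb2 (CD18) joins Itgal (CD11a, giving LFA-1, which binds ICAM-1), Itgam (CD11b, giving Mac-1 or complement receptor 3) or Itgax (CD11c, giving complement receptor 4). Itgb1 joins Itga4 (giving VLA-4, which binds VCAM-1 and fibronectin), Itga5 (the classical fibronectin receptor) and Itga6 (a laminin receptor), and Itgb5 joins Itgav to bind vitronectin. A beta chain is shared by several alpha chains, and macrophages use these pairs to adhere, to crawl and to take up opsonized particles.

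On the GRCm38 build, Itgam (chr7:128062640-128118491), Itgax (chr7:128129547-128150657) and Itgal (chr7:127296260-127335138) lie on the plus strand of 1 chromosome, and Itgam and Itgax are neighbours. Itga6 (chr2:71745616-71858416), Itga4 (chr2:79255426-79333123) and Itgav (chr2:83724397-83806916) lie on the plus strand of another. The remaining members are Itgb1 (chr8:128685654-128733200, plus strand), Itgb2 (chr10:77530252-77565708, plus strand), Itga5 (chr15:103344286-103366763, minus strand) and Itgb5 (chr16:33829665-33949338, plus strand). All 10 are protein-coding genes. Of the exon bases of Itgam, 68.7% are also exon of Gm49368 on the same strand. Read pairs wholly inside these shared bases count for neither gene, so the level of Itgam is understated. Pairs that also reach bases held by Itgam alone count for Itgam, so a level per kb of those bases alone is an upper estimate.

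RefSeq promoter sequences on GRCm38.p6 were at hand for 7 of the 10 members, which are Itga4, Itga5, Itgav, Itgam, Itgax, Itgb1 and Itgb5. Of the upstream windows, 6 are shown, each of up to 250 bases that end just before the first transcribed base. These genes either rose at 3 h of activation in Ahr+/+ BMMs (Itga4, Itga5, Itgav), were not called there (Itgam, Itgax), or hold the core letters of an AhR response element (Itgax, Itgb5). At 20 h Itgav was lower with activation while Itga4 and Itga5 were still higher. Itgb1 also rose at 3 h, but its window is not shown. Capitals mark matches to 3 motifs on either strand: GCGTG (the AhR response element core), GAGGAA (the PU box of the myeloid factor PU.1) and a kappaB-like motif (GGG and CC with 5 free bases between them).
Itga4 (chr2:79255176-79255425, plus strand): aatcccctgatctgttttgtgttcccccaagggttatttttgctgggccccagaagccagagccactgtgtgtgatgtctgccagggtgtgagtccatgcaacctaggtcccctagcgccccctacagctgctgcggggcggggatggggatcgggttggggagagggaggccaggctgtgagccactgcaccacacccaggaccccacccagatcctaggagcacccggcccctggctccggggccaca
Itga5 (chr15:103366792-103367041, minus strand): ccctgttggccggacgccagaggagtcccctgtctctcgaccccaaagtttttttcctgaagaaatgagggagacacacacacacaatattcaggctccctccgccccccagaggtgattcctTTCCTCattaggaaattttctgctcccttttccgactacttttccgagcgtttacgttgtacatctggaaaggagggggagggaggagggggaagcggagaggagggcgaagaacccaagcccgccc
Itgav (chr2:83724147-83724396, plus strand): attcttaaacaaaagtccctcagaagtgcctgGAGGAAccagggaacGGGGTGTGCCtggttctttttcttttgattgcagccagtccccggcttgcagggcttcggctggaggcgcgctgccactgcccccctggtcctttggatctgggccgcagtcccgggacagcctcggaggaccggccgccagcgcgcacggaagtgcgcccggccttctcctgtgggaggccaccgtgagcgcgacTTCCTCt
Itgam (chr7:128062390-128062639, plus strand): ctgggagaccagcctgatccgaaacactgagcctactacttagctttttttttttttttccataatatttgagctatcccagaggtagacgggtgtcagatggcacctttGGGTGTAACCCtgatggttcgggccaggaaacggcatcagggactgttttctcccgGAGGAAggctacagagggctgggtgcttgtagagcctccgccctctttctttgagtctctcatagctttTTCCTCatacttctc
Itgax (chr7:128129300-128129546, plus strand): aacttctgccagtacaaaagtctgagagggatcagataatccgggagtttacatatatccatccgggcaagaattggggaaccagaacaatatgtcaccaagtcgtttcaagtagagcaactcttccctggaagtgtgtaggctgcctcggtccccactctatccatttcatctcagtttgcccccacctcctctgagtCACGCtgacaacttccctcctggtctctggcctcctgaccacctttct
Itgb5 (chr16:33829415-33829664, plus strand): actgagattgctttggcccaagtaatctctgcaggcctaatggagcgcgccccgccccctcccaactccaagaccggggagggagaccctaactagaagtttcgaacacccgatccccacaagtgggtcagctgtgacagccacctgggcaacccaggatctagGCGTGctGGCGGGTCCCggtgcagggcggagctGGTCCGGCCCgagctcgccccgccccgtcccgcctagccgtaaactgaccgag

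Among these windows the AhR core was found once in Itgax and once in Itgb5 and in none of the other 5. Of all 32851 RefSeq promoter windows, 28.2% hold it. The paper screened longer upstream regions, on both strands, for this core and for other AhR response elements. That screen was not compared here, so a window without the core does not show that the gene lacks such an element. A PU box was found in Itgam (2 matches), Itgav (2), Itga5 (1) and Itgb1 (1), against 23.3% of all windows. The kappaB-like letters lay in Itgam (2 overlapping matches), Itgb5 (2) and Itgav (1), against 45.8% of all windows. Of the 5 members that rose at 3 h in Ahr+/+ BMMs, Itgal had no window at hand. The windows of Itga4, Itga5, Itgav and Itgb1 had none of the 3 motifs in common, since that of Itga4 held no match.

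In unactivated Ahr+/+ BMMs at 3 h, the 3 beta chains were the most abundant members per kb of full exon length. Itgb2 stood at 291 ± 37.0 CPM per kb (mean ± SD, n = 4) and Itgb1 at 141 ± 16.5, followed by Itgb5 at 72.1 ± 4.64. Among alpha chains Itga5 led with 54.9 ± 7.58 CPM per kb, then Itgam with 43.1 ± 2.80. Over the exon bases that only Itgam holds, an upper estimate, its level was 137 ± 8.94. At that upper estimate Itgam came close to Itgb1 and above Itgb5 and the other alpha chains, so its place among them was not resolved. Itga6 followed with 33.8 ± 1.82, Itgav with 15.4 ± 2.42, Itga4 with 9.86 ± 2.12 and Itgal with 9.73 ± 1.45 CPM per kb, and the last 2 did not differ beyond their spread. Itgax was lowest, at 1.51 ± 0.250 CPM per kb. The merged exon length was 13978 bases for Itga4, 10744 for Itgav and 9025 for Itga6, and at most 6569 for the other members. Where the transcripts present are shorter than the merged length, a level per kb is understated. This was not examined, so the order between genes depends on the lengths used.

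How far a member's level moved over the 16 groups differed between members. Itgb2 and Itgam were nearly flat, with the highest group mean 1.44 and 1.49 times the lowest, and Itgb1 spanned 2.23 times. Itgb5 spanned 4.93, Itga4 5.75, Itga5 8.0, Itgax 8.08, Itgav 10.8 and Itga6 11.6 times. Itgal had the widest span, 19.5 times, from 46.0 ± 8.58 CPM in unactivated Ahr-/- BMMs of 20 h to 899 CPM with hk S.E. and BaP in Ahr-/- BMMs of 20 h. When the 16 groups were ordered by their mean, libraries of neighbouring groups overlapped at all 15 steps for Itgam, Itgax, Itgb1 and Itgb2. The order broke at 3 of 15 steps for Itgal, at 2 for Itga5, Itga6, Itgav and Itgb5 and at 1 for Itga4.

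**Figure D1:**
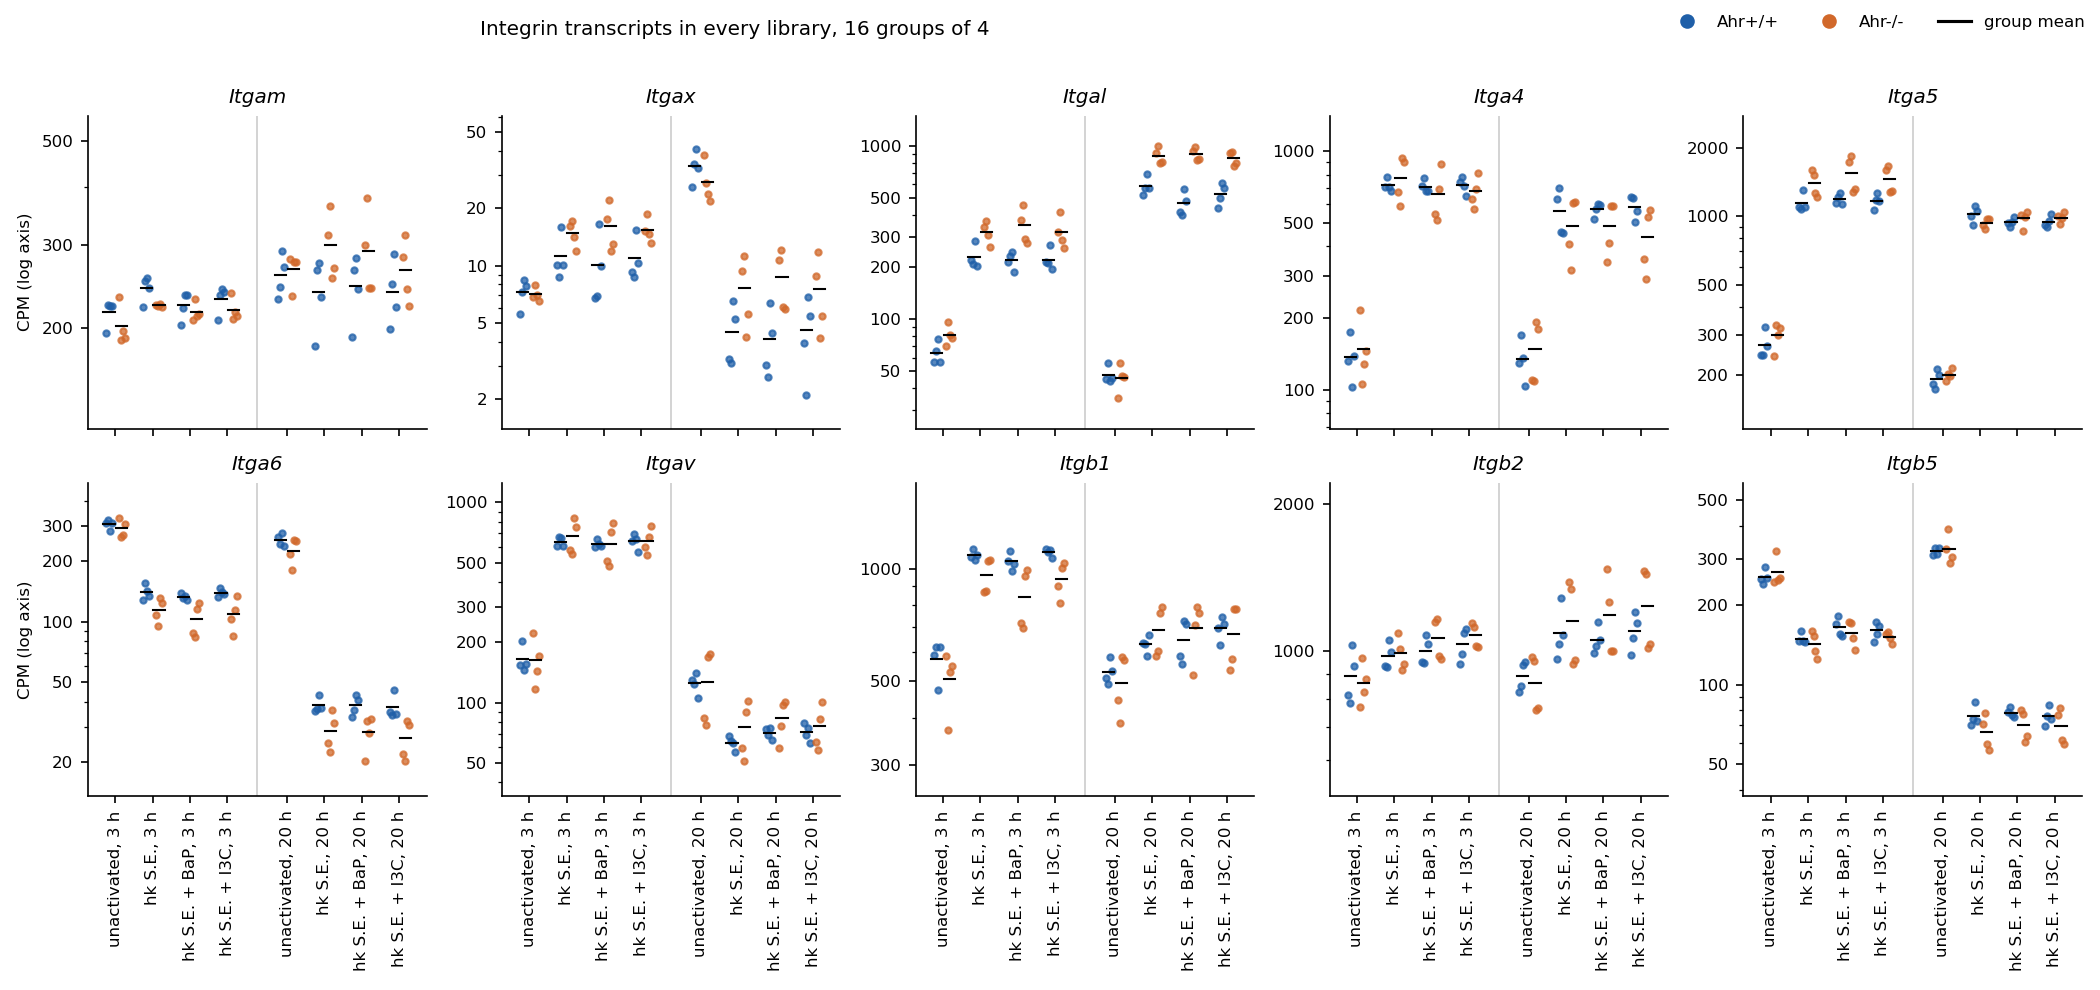
Level of the 10 integrin genes in each of the 64 libraries, in CPM on a log axis, by treatment at 3 h and 20 h, with Ahr+/+ libraries in blue, Ahr-/- libraries in orange and group means as black bars. Itgb2 and Itgam stay level, Itga4 and Itga5 are high in every activated group, Itga6 and Itgb5 are low there, and Itgal at 20 h is higher in all activated Ahr-/- libraries than in all activated Ahr+/+ ones.

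Activation with hk S.E. changed most of the integrins. At 3 h in Ahr+/+ BMMs, 5 of the 10 members rose and 2 fell at an adjusted p below 0.01 (edgeR's quasi-likelihood test), where 56.6% of all genes tested were called, 24.2% higher and 32.3% lower. At 20 h 3 rose and 4 fell, where 58.6% of all genes were called, 29.9% higher and 28.7% lower. AhR-deficient BMMs had 6 higher and 2 lower members at 3 h (57.3% of all genes called, 25.5% higher and 31.8% lower) and 5 higher and 4 lower at 20 h (54.3%, with 28.3% higher and 26% lower). The change with hk S.E. itself differed between 20 h and 3 h for 6 members in Ahr+/+ (47.8% of all genes called) and 5 in Ahr-/- BMMs (44.7%). The members called were 7, 7, 8 and 9 of 10, and the 7 of 10 at each time in Ahr+/+ BMMs are near those backgrounds. The 9 fell to 7 or 8 when any 1 library was left out. No test of these shares against the backgrounds was made. The members' median log2 fold change was 0.77 and 0.07 at 3 h and 20 h in Ahr+/+ and 0.99 and 0.30 in Ahr-/- BMMs, where the median of all genes tested lay between -0.10 and 0.02.

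Itgal, the alpha chain of LFA-1, rose at 3 h and further at 20 h. Its levels in the 4 Ahr+/+ libraries were 56.5, 56.6, 65.9 and 76.5 CPM without activation and 203, 209, 221 and 284 CPM after 3 h of hk S.E. At 20 h they were 44.1, 45.3, 46.1 and 55.8 CPM without and 518, 573, 574 and 691 CPM with hk S.E. No activated library overlapped the unactivated ones at either time. In these bulk samples, more cells that carry a transcript and more of it per cell cannot be told apart. The log2 fold change was 1.84 ± 0.15 (SE) at 3 h, adjusted p = 8.77e-16, and 3.62 ± 0.16 at 20 h, adjusted p = 9.02e-27, which is 3.58-fold and 12.3-fold (edgeR). The Ahr-/- rise was 1.97 ± 0.15 at 3 h and 4.25 ± 0.17, or 19.1-fold, at 20 h. The activation change was larger at 20 h than at 3 h by 1.78 ± 0.21 in Ahr+/+ (adjusted p = 2.09e-10) and by 2.29 ± 0.21 in Ahr-/- BMMs (adjusted p = 1.12e-13).

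The other 2 alpha chains of the beta-2 family did not follow Itgal. Itgam lay between 195 and 224 CPM in unactivated and between 222 and 255 CPM in activated Ahr+/+ libraries of 3 h, and between 230 and 292 and between 183 and 275 CPM at 20 h. These ranges overlapped, and the log2 fold changes were 0.17 (95% interval -0.08 to 0.41) at 3 h and -0.12 (-0.36 to 0.13) at 20 h. The Ahr-/- values were 0.15 (-0.10 to 0.39) and 0.17 (-0.07 to 0.42). With only the 2 groups fitted, Itgam at 3 h in Ahr+/+ BMMs passed the threshold at 0.25, adjusted p = 0.0066.

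Itgax, the alpha chain best known from dendritic cells, was the scarcest member and the only one whose unactivated level rose several-fold with time in culture. Unactivated Ahr+/+ libraries held 5.6, 7.28, 7.83 and 8.38 CPM at 3 h and 25.7, 32.5, 34.2 and 40.6 CPM at 20 h. All libraries of 20 h lay above all of 3 h, 4.57-fold in Ahr+/+ (adjusted p = 9.68e-07) and 3.88-fold in Ahr-/- BMMs (adjusted p = 5.94e-06, edgeR). With hk S.E. the Ahr+/+ libraries held 8.71, 10.1, 10.2 and 16 CPM at 3 h and 3.10, 3.23, 5.24 and 6.51 CPM at 20 h. At 20 h Itgax was thus below every unactivated library, by -2.86 ± 0.32 in Ahr+/+ (7.26-fold, adjusted p = 1.89e-11) and -1.86 ± 0.31 in Ahr-/- BMMs (adjusted p = 4.78e-07). Against the unactivated level of 3 h the activated level of 20 h was close, at means of 4.52 ± 1.65 and 7.27 ± 1.2 CPM in Ahr+/+ BMMs, so the fall at 20 h is set against a control that had risen. At 3 h the log2 fold change was 0.62 (-0.01 to 1.26), adjusted p = 0.0805, in Ahr+/+ and 1.07 ± 0.31, adjusted p = 0.0022, in Ahr-/- BMMs, and the difference between the genotypes, 0.44 (-0.44 to 1.33), was not called. With only the 2 groups fitted, the Ahr+/+ change at 3 h was 0.71 and was called, adjusted p = 0.00429.

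Itgb2, the beta chain these 3 share, held 783 to 1029 CPM in unactivated and 928 to 1055 CPM in activated Ahr+/+ libraries of 3 h. At 20 h it held 825 to 950 and 964 to 1284 CPM, ranges that did not overlap, with a log2 fold change of 0.29 ± 0.12, adjusted p = 0.0303, short of the threshold. In Ahr-/- BMMs at 20 h the change was 0.42 ± 0.12 and passed it, adjusted p = 0.00214, with 758 to 972 CPM against 940 to 1383 CPM in overlapping libraries. That call was lost on leaving out any of 4 libraries (unactivated replicate 3 or 4, activated replicate 1 or 2; log2 fold change 0.32 to 0.37) and when only the 2 groups were fitted (adjusted p = 0.0559).

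With Itgal up and Itgam nearly level, the make-up of the beta-2 alpha chains shifted. Itgal made up 17.9% ± 1.81 of the summed Itgam, Itgax and Itgal level per kb in unactivated Ahr+/+ BMMs at 3 h, 40.6% ± 3.22 with hk S.E. at 3 h and 65.0% ± 2.47 with hk S.E. at 20 h (SD, n = 4). The share of Itgax fell from 10.5% ± 1.04 without to 0.672% ± 0.184 with hk S.E. at 20 h. These shares use the full exon length of Itgam. Over its own exon bases, which gives an upper estimate of Itgam, the share of Itgal was lower but moved the same way. That share went from 6.53% ± 0.761 to 18.1% ± 2.11 at 3 h and from 4.12% ± 0.699 to 37.2% ± 2.58 at 20 h. The ratio of the 3 summed alpha chains to Itgb2 was 0.188 ± 0.0213 unactivated and 0.267 ± 0.0145 activated at 3 h, and 0.225 ± 0.0116 and 0.387 ± 0.0206 at 20 h. Over the own bases of Itgam these ratios, as upper estimates, were 0.515 ± 0.0602, 0.598 ± 0.0289, 0.612 ± 0.0302 and 0.678 ± 0.0576 in the same order. Libraries then overlapped at both times.

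Itga4 and Itga5, partners of Itgb1, rose at 3 h and were still high at 20 h. Itga4 held 104, 133, 139 and 176 CPM in unactivated and 684, 710, 711 and 780 CPM in activated Ahr+/+ libraries of 3 h. At 20 h it held 105, 130, 136 and 170 CPM against 456, 459, 629 and 705 CPM. Neither time showed overlap, and the rises were 2.39 ± 0.22 (5.23-fold, adjusted p = 6.96e-14) and 2.06 ± 0.22 (4.16-fold, adjusted p = 6.04e-12). Itga5 held 245, 246, 268 and 325 CPM in unactivated and 1080, 1091, 1091 and 1302 CPM in activated libraries of 3 h. At 20 h it held 175, 183, 200.1 and 213 CPM against 919, 999, 1058 and 1113 CPM. Its rises were 2.08 ± 0.11 (4.21-fold, adjusted p = 2.36e-24) and 2.41 ± 0.11 (5.31-fold, adjusted p = 5.91e-27), again without overlap. Neither gene's change differed between 3 h and 20 h at the threshold in either genotype (Itga5 in Ahr+/+ BMMs 0.33 ± 0.14, adjusted p = 0.0456). Without activation, Itga5 fell from 3 h to 20 h by 0.49 ± 0.10 in Ahr+/+ (adjusted p = 0.000578) and by 0.57 ± 0.10 in Ahr-/- BMMs (adjusted p = 5.46e-05). The first of these calls was lost without unactivated Ahr+/+ replicate 3 of 3 h (adjusted p = 0.0107), and the second with only the 2 groups fitted (adjusted p = 0.0174) and with the identifier series as a covariate (-0.39, adjusted p = 0.0419). Itgal also fell over that time in unactivated Ahr-/- BMMs, by 0.83 ± 0.15 (adjusted p = 6.15e-05), again lost with only the 2 groups fitted (adjusted p = 0.0165). In these 2 comparisons of unactivated cells 6.07% (Ahr+/+) and 6.98% (Ahr-/-) of all genes were called, against 2 and 3 of the 10 members. By direction these were 1 member higher and 1 lower in Ahr+/+ (3.31% of all genes higher, 2.77% lower) and 1 higher and 2 lower in Ahr-/- BMMs (3.52% and 3.46%).

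Itga6, the laminin-binding partner of Itgb1, fell at both times. Unactivated Ahr+/+ libraries held 281, 308, 310 and 319 CPM at 3 h and 237, 243, 264 and 275 CPM at 20 h. Activated ones held 129, 134, 143 and 155 CPM and then 36.0, 36.9, 37.3 and 43.4 CPM. The fall was 2.17-fold at 3 h (log2 -1.12 ± 0.14, adjusted p = 9.60e-10) and 6.63-fold at 20 h (-2.73 ± 0.15, adjusted p = 6.69e-23), and it was larger at 20 h by -1.61 ± 0.20, adjusted p = 9.99e-10. The Ahr-/- values were -1.35 ± 0.14 and -2.97 ± 0.15.

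Itgb1 itself rose less than its partners Itga4 and Itga5, and mainly at 3 h. Its Ahr+/+ levels were 475 to 617 CPM without and 1055 to 1126 CPM with hk S.E. at 3 h, a log2 fold change of 0.92 ± 0.13, adjusted p = 3.05e-08. At 20 h they were 492 to 581 and 584 to 666 CPM, and the change of 0.25 (-0.02 to 0.51) was not called, adjusted p = 0.0982. The change at 20 h was smaller than that at 3 h by -0.67 ± 0.19, adjusted p = 0.00194. In Ahr-/- BMMs Itgb1 rose by 0.92 ± 0.13 at 3 h and by 0.46 ± 0.13 at 20 h, adjusted p = 0.00215, a call lost without unactivated replicate 1 or 2 or activated replicate 3 or 4 (0.36 to 0.42) and with only the 2 groups fitted (0.43, adjusted p = 0.0559). The summed level per kb of Itga4, Itga5 and Itga6 was 0.711 ± 0.123 times that of Itgb1 in unactivated and 1.12 ± 0.104 times in activated Ahr+/+ BMMs at 3 h, and 0.593 ± 0.0217 and 1.64 ± 0.137 times at 20 h. The size of these ratios depends on the merged exon lengths used.

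**Figure D2:**
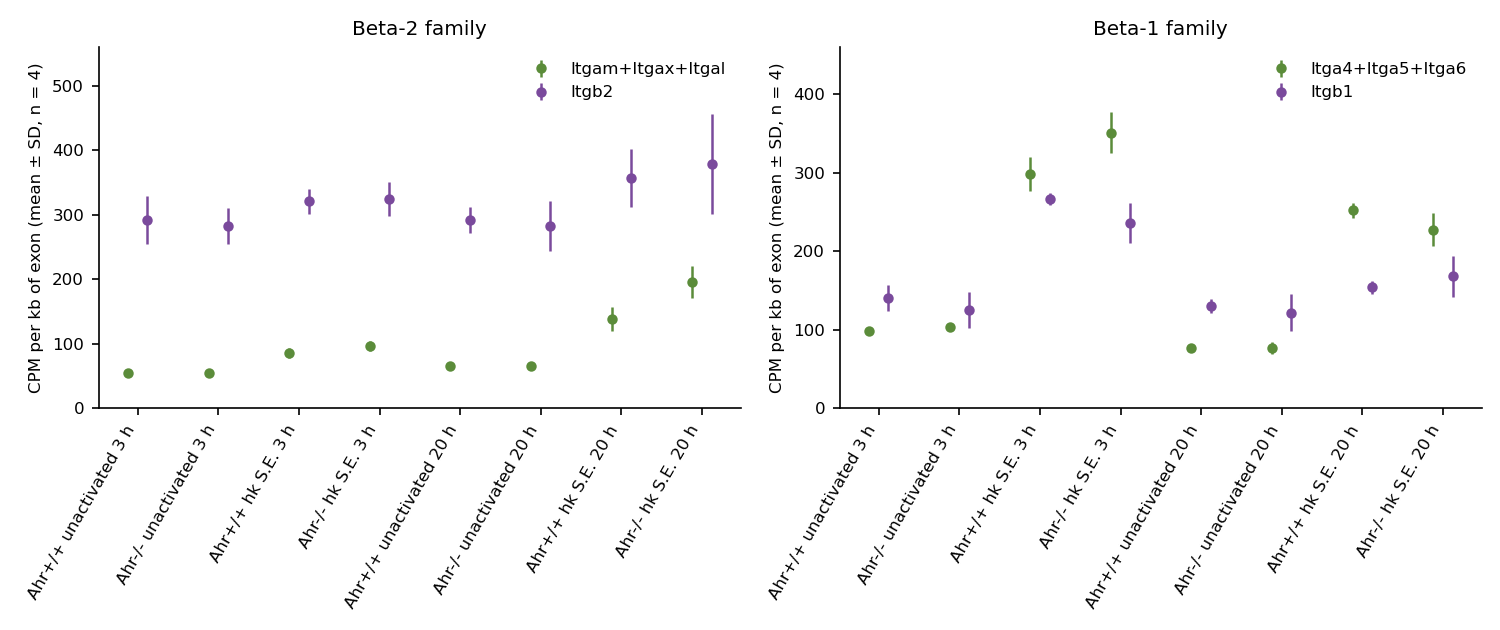
Summed alpha chain and beta chain transcripts in CPM per kb of exon (mean ± SD, n = 4) in the 8 DMSO groups, on the left Itgam, Itgax and Itgal against Itgb2, on the right Itga4, Itga5 and Itga6 against Itgb1. Itgb2 stands above its alpha chains in every group, whereas the Itgb1 partners pass Itgb1 in all 4 activated groups.

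Itgav, the alpha chain of vitronectin receptors, turned from higher to lower. Its Ahr+/+ libraries held 146, 155, 157 and 204 CPM without and 602, 606, 665 and 669 CPM with hk S.E. at 3 h. At 20 h they held 106, 124, 130 and 141 CPM without and 56.5, 63.1, 64.1 and 68.2 CPM with hk S.E. The groups did not overlap at either time, and the log2 fold change was 1.94 ± 0.21 at 3 h (3.84-fold higher, adjusted p = 5.95e-12) and -0.99 ± 0.20 at 20 h (1.99-fold lower, adjusted p = 2.92e-05). The difference between the times was -2.93 ± 0.29 in Ahr+/+ (adjusted p = 9.97e-13) and -2.80 ± 0.29 in Ahr-/- BMMs (adjusted p = 4.58e-12). The fall at 20 h in Ahr-/- BMMs, -0.74 ± 0.20, adjusted p = 0.00126, came from overlapping libraries (77.7 to 174 against 51.3 to 102 CPM). It was no longer called without unactivated replicate 3 or 4 or activated replicate 2 (-0.60 to -0.55) or with only the 2 groups fitted, adjusted p = 0.0768.

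Its partner Itgb5 fell at both times. Unactivated Ahr+/+ libraries held 240 to 279 CPM at 3 h and 310 to 330 CPM at 20 h, and activated ones held 145 to 159 and 70.4 to 85.7 CPM. The falls were 1.72-fold (-0.78 ± 0.10, adjusted p = 2.48e-09) and 4.23-fold (-2.08 ± 0.11, adjusted p = 2.44e-24), with -0.91 ± 0.10 and -2.30 ± 0.11 in Ahr-/- BMMs. At 3 h, therefore, Itgav rose while Itgb5 fell, and at 20 h both were below the unactivated level.

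**Figure D3:**
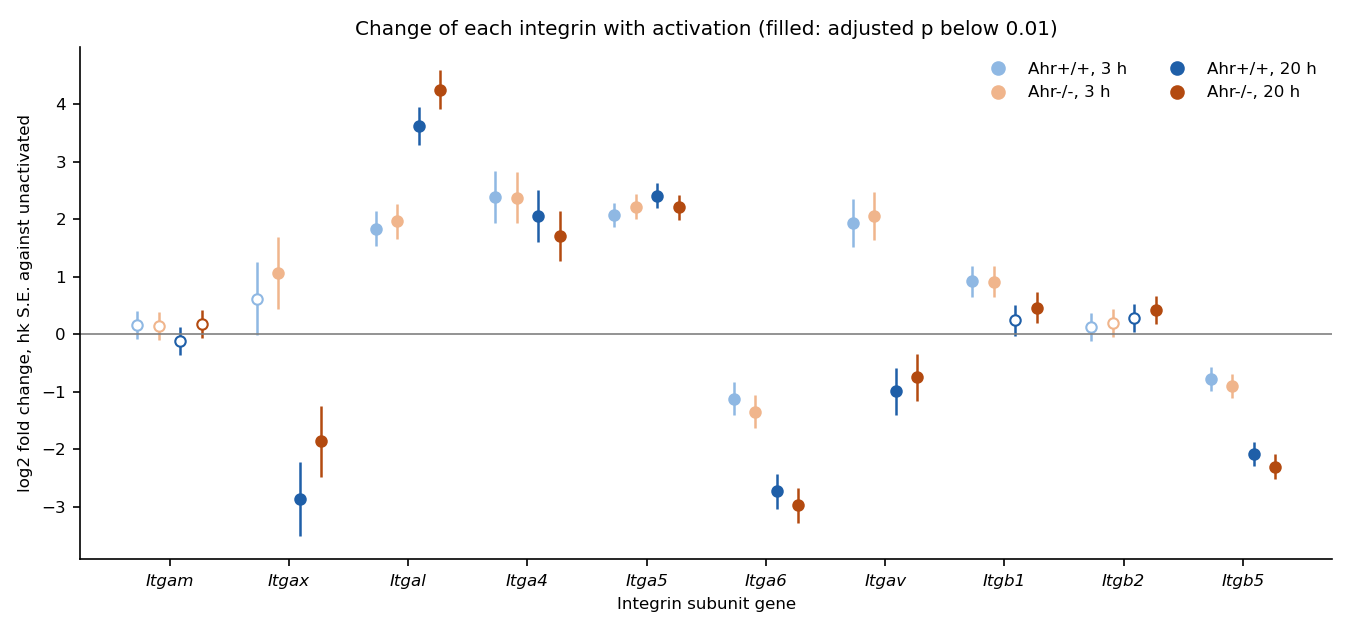
Log2 fold change of each integrin with hk S.E. against unactivated BMMs, with 95% intervals, at 3 h (light) and 20 h (dark) in Ahr+/+ (blue) and Ahr-/- BMMs (orange), filled where the adjusted p was below 0.01. Itgal, Itga4 and Itga5 lie above 0 and Itga6 and Itgb5 below it in all 4 comparisons, and Itgav and Itgax change side between 3 h and 20 h.

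Over the 16 group means of log2 CPM, the closest pairs of members were Itga4 with Itga5 (Pearson's r = 0.975), Itga6 with Itgb5 (0.975) and Itgal with Itgb2 (0.958), of which only the last pair forms a dimer, and Itgal ran opposite to Itgb5 (-0.966). These are descriptions over 16 groups that all share the contrast of activated with unactivated cells. Among all other genes tested, the 2 closest to each member by the same measure were Birc3 (0.998) and Gbp2 (0.997) for Itga4, Yrdc (0.996) and Med10 (0.995) for Itga5, Plscr1 and Myadm (both 0.997) for Itgav, Nav1 (0.997) and Rgs10 (0.993) for Itgb5 and Samsn1 (0.994) and Pde10a (0.991) for Itgal. For Itga6 they were Gm28875 and Nrp1 (both 0.992), for Itgb1 Sptlc2 (0.990) and Ppa1 (0.989) and for Itgb2 Nsfl1c (0.987) and Hdgf (0.983). The values were lower for Itgax (Tmem176b 0.955, Tspyl3 0.928) and Itgam (H2-Ob 0.841, Gtf2h5 0.833).

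Between the genotypes 1 integrin passed the threshold. Itgal stood above its Ahr+/+ level in Ahr-/- BMMs when hk S.E. had acted for 20 h, at 796, 807, 909 and 997 CPM against 518, 573, 574 and 691 CPM. The 2 sets of libraries did not overlap, and the log2 difference was 0.57 ± 0.15, adjusted p = 0.00315 (edgeR), or 1.49-fold, where 12.5% of all genes were called, 5.06% higher and 7.39% lower. A count of 1 among 10 members is thus near the background. With the BaP and I3C groups added, the 12 activated Ahr-/- libraries of 20 h held 768 to 997 CPM and the 12 of Ahr+/+ 400 to 691 CPM. As 4 mice of each genotype were used, the 12 libraries of a genotype are not 12 independent samples. The labels do not say which libraries share a mouse. At 3 h with hk S.E. the difference was 0.48 ± 0.15, adjusted p = 0.0416, and in unactivated BMMs 0.35 (0.05 to 0.65) at 3 h and -0.06 (-0.36 to 0.24) at 20 h. The call at 20 h was lost on leaving out any of 5 of the 8 libraries (Ahr+/+ replicate 1, 2 or 4 or Ahr-/- replicate 1 or 2), with a log2 difference of 0.51 to 0.56 and an adjusted p of 0.0104 to 0.0205. With only the 2 groups fitted it was 0.60, adjusted p = 0.0104.

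All 16 Ahr-/- libraries of 20 h carry identifiers of 1 series and all 12 activated Ahr+/+ libraries of 20 h those of another, so genotype and identifier series cannot be told apart among them. With the series as a covariate, estimated from the other groups and chosen after the data were seen, the difference in Itgal was 0.71, adjusted p = 0.0196. Dendritic cell markers summed to 20.5 to 39.9 CPM in Ahr+/+ and 3.90 to 8.65 CPM in Ahr-/- BMMs of these groups, most of it Ccr7, while Xcr1, Clec9a, Cd209a, Siglech and Dpp4 did not pass the filter in any group. Their part in the difference was not tested.

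Of the other members after 20 h of hk S.E., Itga6 was lower in Ahr-/- BMMs by -0.42 ± 0.14, adjusted p = 0.0323, and Itgam was higher by 0.33 ± 0.12, adjusted p = 0.0438, both short of the threshold. Itga6 passed it, at -0.55, when Ahr-/- replicate 3 was left out. In the remaining 3 comparisons of the genotypes no member was called, where 1.21% (unactivated, 3 h), 0.702% (unactivated, 20 h) and 2.83% (hk S.E., 3 h) of all genes were. At an unadjusted p below 0.05, 8 of the 40 comparisons of a member between genotypes passed, 1 and 0 of 10 in unactivated BMMs at 3 h and 20 h and 3 and 4 of 10 with hk S.E., where 9.99%, 12.5%, 19.1% and 32% of all genes did. Without a replicate block, the activation change was not called different between the genotypes for any member (0.0138% of all genes called at 3 h). At 20 h Itgal came nearest, with a rise larger by 0.63 (0.21 to 1.05) in Ahr-/- BMMs, adjusted p = 0.046, followed by Itgax with 1.00 (0.14 to 1.86), adjusted p = 0.148, where 4.41% of all genes were called. Ahr-/- libraries spread more than Ahr+/+ ones for some members, as for Itgav unactivated at 20 h (SD 52.9 against 14.7 CPM).

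Neither AhR ligand changed an integrin at the threshold. BaP and I3C were compared with DMSO in activated BMMs of each genotype at each time, 80 tests of a member in 8 comparisons, and edgeR called 0 of them, as did limma and DESeq2. Across all genes, 0.0482% (3 h) and 0.234% (20 h) were called with BaP and 0.131% and 0.509% with I3C in Ahr+/+ BMMs. In Ahr-/- BMMs the shares were 0.0275%, 0.0138%, 0.0206% and 0.206% in the same order. A count of 0 among 10 members is thus near the background. That background depends on the fit: for BaP at 20 h in Ahr+/+ BMMs 34 genes were called here, 90 with DESeq2 and 271 with the replicate block. The paper, with its own fit, reports many more genes for that ligand and time. Only 1 of the 80 had an unadjusted p below 0.05, Itgal with BaP at 20 h in Ahr+/+ BMMs, where 10.4% of all genes did, so 1 of 10 members is near the background. In the other 7 comparisons 1.77 to 5.93% of all genes did. Itgal held 400, 416, 482 and 567 CPM with BaP, 442, 498, 573 and 610 CPM with I3C and 518, 573, 574 and 691 CPM with DMSO, ranges that overlap. The log2 difference of BaP was -0.34 (95% interval -0.63 to -0.04), adjusted p = 0.39.

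The intervals show what size of ligand effect the data could hold. The largest point estimate among the 80 was 0.34, and all intervals lay between -0.78 and 0.80 on the log2 scale, the widest being those of Itgax. Itgax and Itgb5, whose promoter windows held the AhR core, differed from DMSO by -0.14 (-0.78 to 0.51) and 0.05 (-0.16 to 0.25) with BaP at 20 h in Ahr+/+ BMMs. The 4 tests of whether a ligand's effect differed between the genotypes called no member either, where 0.0138% of all genes or none were called, and the lowest adjusted p was 0.984. Between BaP at 1 µM and I3C at 10 µM, doses that differ, no member was called at 3 h (0.110% of all genes called) or at 20 h (0.282%), and none had an unadjusted p below 0.05.

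**Figure D4:**
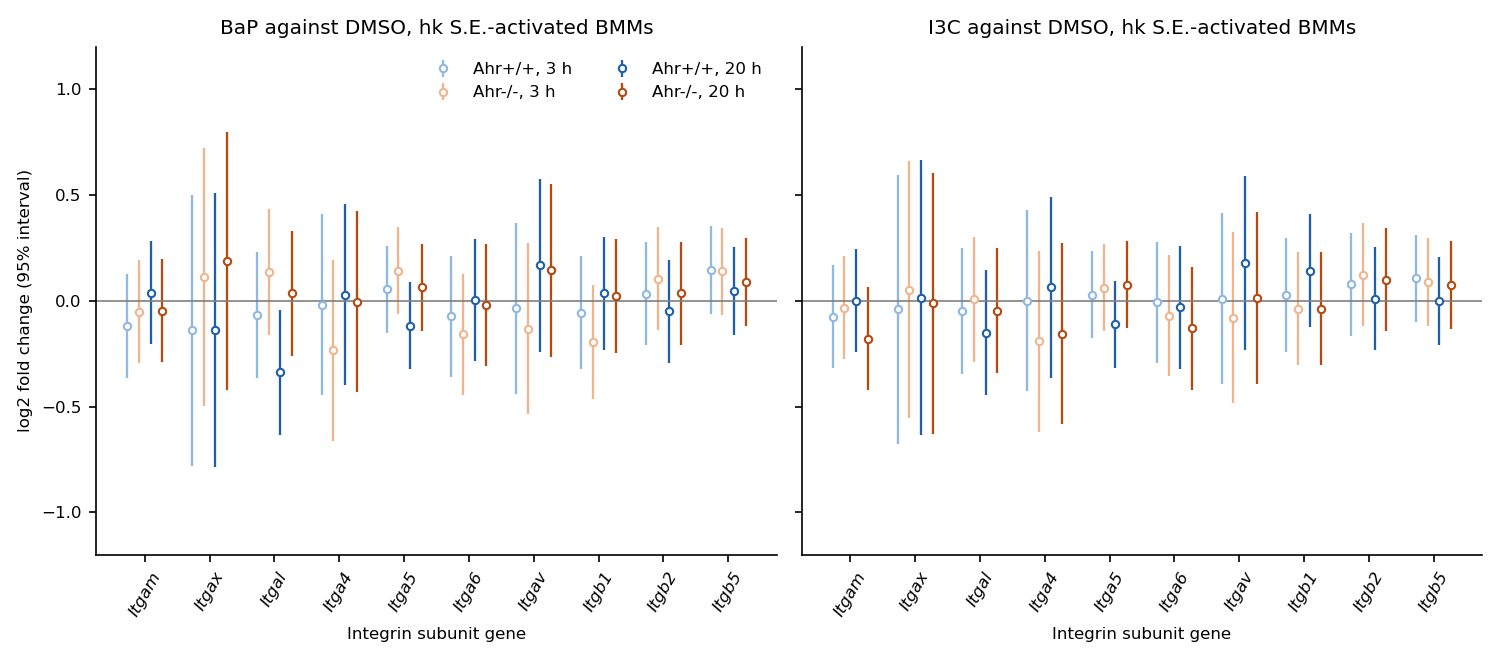
Log2 fold change of each integrin with BaP (left) and I3C (right) against DMSO in hk S.E.-activated BMMs, with 95% intervals, at 3 h (light) and 20 h (dark) in Ahr+/+ (blue) and Ahr-/- BMMs (orange). All points lie within 0.34 of 0, and 1 of the 80 intervals, that of Itgal with BaP at 20 h in Ahr+/+ BMMs, excludes 0.

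Other genes of the integrin system were followed through 6 lists, of which 78 genes were tested. In Ahr+/+ BMMs 46 of the 78 were called at 3 h (59.0%) and 60 at 20 h (76.9%), against the 56.6% and 58.6% of all genes given above. The shares were 4 and 5 of 9 for further subunits, 8 and 8 of 11 for activators, 6 and 7 of 9 for inhibitors, 14 and 17 of 21 for signalling genes, 8 and 13 of 16 for ligands and 6 and 10 of 12 for membrane partners. Further subunits, ligands and membrane partners at 3 h and further subunits at 20 h thus lay below the background, and no list was tested against it. Of the 9 further integrin subunits that passed the filter, 2 rose and 2 fell at 3 h and 2 rose and 3 fell at 20 h in Ahr+/+ BMMs. Itgb8, a partner of Itgav that can activate latent TGF-beta, was listed at 0 to 0.10 CPM in unactivated and at 35.2 to 40.0 CPM in activated libraries of 3 h, and at 0 to 0.0710 against 14.5 to 25.7 CPM at 20 h. No fold is given for it because unactivated libraries of 3 h held 0 to 4 counts. Itgb3, another partner of Itgav, fell from 8.42 ± 1.52 to 2.96 ± 1.02 CPM at 3 h (log2 -1.51 ± 0.34, adjusted p = 8.89e-05). The rare Itgb2l rose from 0.196 to 0.659 CPM at 3 h (adjusted p = 0.00182). At 20 h Itga8 (4.77 to 0.371 CPM, adjusted p = 2.14e-17) and Itga1, a collagen receptor chain (1.99 to 0.317 CPM, adjusted p = 2.14e-07), fell.

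Genes that switch integrins on or off moved in both directions. In the same Ahr+/+ comparisons 24.2% of all genes rose and 32.3% fell at 3 h, and 29.9% rose and 28.7% fell at 20 h. Of 11 activators 4 rose and 4 fell at each time, led at 3 h by the small GTPase Rap1b (1.96 ± 0.30, adjusted p = 9.97e-08) and its effector Rassf5 (-1.52 ± 0.09, adjusted p = 1.34e-21), and by Rapgef3, at 0.692 and 0.0349 CPM, where activated libraries held 0 or 1 count. At 20 h the Rap1 exchange factor Rasgrp2 fell by 2.77 on the log2 scale (adjusted p = 7.18e-11), Rapgef3 fell from 1.09 to 0.420 CPM and the adapter Fyb rose by 1.39 ± 0.09. Among 9 inhibitors 3 rose and 3 fell at 3 h and 4 rose and 3 fell at 20 h. Filip1l rose by 4.15 ± 0.16 and 1.63 ± 0.15, and Rasa3, which turns Rap1 off, fell by 2.45 and 1.08 on the log2 scale. Rap1gap fell by 2.35 at 3 h, and Itgb1bp1, which competes with talin for the Itgb1 tail, rose by 0.76 ± 0.06 at 20 h.

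Of 21 adhesion signalling genes, 11 rose and 3 fell at 3 h and 11 rose and 6 fell at 20 h (median log2 fold change 0.61 and 0.44, against -0.10 and -0.000729 over all genes). Of all genes, 56.6% were called at 3 h and 58.6% at 20 h. The kinase Src rose from 7.29 ± 3.05 to 176 ± 10.6 CPM at 3 h (24.3-fold, adjusted p = 8.05e-28), while the scarce Lims2 fell at 3 h (3.08 to 0.791 CPM). At 20 h the docking protein Bcar1 rose from 0.296 to 1.60 CPM and the exchange factor Vav3 fell by 2.03 on the log2 scale.

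Of 16 ligand genes tested, 7 rose and 1 fell at 3 h and 6 rose and 7 fell at 20 h, where 56.6% and 58.6% of all genes were called. Vcam1, a counter-receptor of VLA-4, lay at 0.0753 to 0.542 CPM in unactivated and 64.2 to 82.5 CPM in activated libraries of 3 h (8.13 ± 0.29, adjusted p = 3.00e-31). Icam1, a counter-receptor of LFA-1, lay at 61.6 to 71.5 and 2031 to 2216 CPM (4.97 ± 0.10, adjusted p = 5.24e-43). Icam2, on the same list, did not rise. Its means without and with hk S.E. in Ahr+/+ BMMs were 6.39 ± 1.01 and 4.58 ± 0.286 CPM at 3 h, and 8.36 ± 1.88 and 2.88 ± 0.539 CPM at 20 h. Activated libraries of 20 h held 8.14 ± 1.99 CPM of Vcam1 and 188 ± 17.7 CPM of Icam1. Complement C3, source of the Mac-1 ligand iC3b, rose by 4.10 ± 0.15 and 5.22 ± 0.16, and fibronectin (Fn1), bound by Itga5 and Itga4, fell at 20 h from 22.4 ± 6.80 to 2.01 ± 0.810 CPM (-3.45 ± 0.28, adjusted p = 2.58e-16).

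Among 12 membrane partners 5 rose and 1 fell at 3 h and 4 rose and 6 fell at 20 h, where 56.6% and 58.6% of all genes were called. The urokinase receptor Plaur (2.87 ± 0.17) and the thrombospondin receptor Cd47 (1.60 ± 0.21) rose at 3 h and the tetraspanin Cd151 fell 2.43-fold. At 20 h the tetraspanin Cd9 (-2.57 ± 0.16) and the scavenger receptor Cd36 (-2.37 ± 0.26) fell, and Slc3a2 (CD98) rose by 2.13 ± 0.10.

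In none of the 8 ligand comparisons was any of these 78 genes called, where 0.0138% to 0.509% of all genes were, so that count is near the background. Between the genotypes after 20 h of hk S.E., 2 were higher and 15 lower in Ahr-/- BMMs, where 12.5% of all genes were called, 5.06% higher and 7.39% lower. Genotype and identifier series cannot be told apart here, as for Itgal. With the series as a covariate 493 of all genes were called instead of 1811, and the genes named below were not followed in that fit. Icam1, the LFA-1 ligand, was higher by 0.61 ± 0.08 (adjusted p = 1.41e-07), as was Filip1l by 0.58 ± 0.14. Lower were both Itgb7, which pairs with Itga4 (-0.87 ± 0.12, adjusted p = 4.36e-07), and Itgb3 (-2.13 ± 0.42, adjusted p = 0.000142), and also Mfge8 (-1.11 ± 0.19), Spp1 (-0.96 ± 0.18) and Thbs1 (-1.32 ± 0.30), which are ligands of Itgav pairs. The genes named in this comparison were chosen after their values were seen.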

How the data were processed

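RNA of 64 BMM cultures was sequenced as stranded poly(A) libraries. The authors trimmed reads with AdapterRemoval, aligned them with HISAT2 2.1.0 to mm10 and counted read pairs per gene with HTSeq 0.9.1 (reverse strand, exons). The deposited count files hold raw counts for 55487 genes, 1 file per library. Their 5 summary lines were left out of all totals; they held 3.41 to 5.92% of pairs for no feature, 1.06 to 1.61% ambiguous and 12.4 to 15.8% not unique. The deposited variance-stabilized table, on a log2 scale, was made by the authors with DESeq2 and was used here only for an alternative with limma.

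Counts were tested with edgeR 4.0.16 in R 4.3.3 by its quasi-likelihood test, with TMM scaling, filterByExpr at a minimum count of 10, and 1 mean for each of the 16 groups over all 64 libraries. Benjamini-Hochberg adjustment ran over the 14537 genes tested, and a gene was called at an adjusted p below 0.01. Intervals are 95% intervals of the fit, and CPM is per 1e6 counts on genes after TMM scaling. Levels per kb divide by the merged exon length of GENCODE M21, used for names and coordinates. Alternatives were DESeq2 1.42.0, limma 3.58.1, size factors by RLE, no filter, a threshold of 0.05, the compared groups alone, the replicate block, each library left out, and, added after the data were seen, the identifier series. The fit was also run on simulated independent counts, for BaP at 20 h in Ahr+/+ BMMs only. That simulation held no shared mice, replicate split or identifier series, so it cannot show their part in the results. No 2 libraries of a group agreed within sampling noise.

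The members and gene lists were chosen with earlier results of these data known. Genes outside the 10 members were named by rule: the 3 called genes of each list with the largest change in each Ahr+/+ activation comparison, up to 2 in each Ahr+/+ ligand comparison at 20 h (where none was called), the 2 genes most like each member over group means, and genes of the checks on cell type, activation and AhR. Exceptions are stated, and some genes that the rule names are not reported here.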

Additional observations from a re-analysis of the deposited data

Results flagged for a closer look

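Dixon's test was made on 160 sets, each the 4 values of 1 member in 1 group. In 6 sets 1 value stood apart from the other 3, where chance at 1 in 20 would flag 8. The number flagged is thus not above that of chance. Itgam was low in unactivated Ahr+/+ replicate 1 of 3 h, at 195 CPM against 223 to 224 CPM, and in unactivated Ahr-/- replicate 2 of 20 h, at 233 CPM against 276 to 281 CPM. Itga5 was high in hk S.E.-activated Ahr+/+ replicate 3 of 3 h, at 1302 CPM against 1080 to 1091 CPM. Itga6 was high in Ahr+/+ replicate 3 with hk S.E. and I3C at 20 h, at 45.8 CPM against 34.5 to 35.4 CPM. Itgb5 was high in hk S.E.-activated Ahr+/+ replicate 2 of 3 h, at 159 CPM against 145 to 146 CPM, and in unactivated Ahr-/- replicate 2 of 3 h, at 321 CPM against 246 to 253 CPM.

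The change with hk S.E. differed between 20 h and 3 h, by the test of that difference (edgeR), for 6 members in Ahr+/+ and 5 in Ahr-/- BMMs, where 47.8% and 44.7% of all genes were called. In Ahr+/+ BMMs the log2 difference, 20 h minus 3 h, was -3.48 for Itgax, 1.78 for Itgal, -1.61 for Itga6, -2.93 for Itgav, -0.67 for Itgb1 and -1.30 for Itgb5. In Ahr-/- BMMs it was -2.93 for Itgax, 2.29 for Itgal, -1.63 for Itga6, -2.80 for Itgav and -1.40 for Itgb5.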

How the results depend on the processing

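RLE size factors, no low-count filter and limma on the variance-stabilized values left the call of every member in all 28 comparisons as it was, and DESeq2 changed 2 of 280, calling Itgb1 in the 20 h minus 3 h difference (-0.56, adjusted p = 0.00846) and Itgam between unactivated times (0.41, adjusted p = 0.00999), both in Ahr-/- BMMs. No result reversed. At a threshold of 0.05, members called rose from 0 to 1 for the genotype difference in activation at 20 h, from 0 to 1 between genotypes with hk S.E. at 3 h and from 1 to 3 at 20 h. The identifier series as a covariate, and the compared groups alone, each left 0 called between genotypes with hk S.E. at 20 h, and the compared groups alone left 1 of 3 between unactivated Ahr-/- times. Leaving out each library in turn gave 0 to 2 called between genotypes with hk S.E. at 20 h, 1 to 2 and 3 to 4 between unactivated times in Ahr+/+ and Ahr-/- BMMs, and 7 to 8 for activation at 20 h in Ahr-/- BMMs, against 9 with all libraries. The cause of these changes was not tested.

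Replicate numbers are not stated to mark mice. Deviations of same-numbered libraries correlated above 0.1 in 46 of 48 pairs of Ahr+/+ groups and 45 of 48 of Ahr-/- groups, with a median of 0.384 and 0.828. The exceptions lay between 0.0816 and 0.0942 in Ahr+/+ groups, and in Ahr-/- groups all 3 involved unactivated replicate 1 of 3 h, so the numbers were not taken to pair the samples. With the replicate block, 2 members (Itgal 0.64, adjusted p = 0.000668, and Itgax 1.00, adjusted p = 0.00133) were called for the genotype difference in activation at 20 h, 2 between genotypes with hk S.E. at 20 h (Itgal, and Itga6 at -0.43, adjusted p = 0.00791), and 4 and 7 between unactivated times in Ahr+/+ and Ahr-/- BMMs. Those added between times were Itgal and Itgb5 in Ahr+/+ and Itgam, Itga6, Itgav and Itgb5 in Ahr-/- BMMs. It also called Itgax at 3 h (0.58, adjusted p = 0.00324) and Itgb2 at 20 h (0.29, adjusted p = 0.000263) for activation in Ahr+/+ BMMs, and Itga4 (-0.63, adjusted p = 0.00525) and Itgb1 (-0.45, adjusted p = 0.00233) in the 20 h minus 3 h difference in Ahr-/- BMMs. The lowest count of any member was 51, for Itgax, and the part of depth in its wide intervals was not tested.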
